A study of Mus musculus with 59 samples.

Results

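Livers carrying an E2F1 knock-in allele (1KI, 10 arrays) were compared with livers lacking E2f3a (3aKO, 10 arrays) across all genes, to ask how livers with these altered E2F alleles differ from each other. The 20 arrays were taken by their titles from the first of the authors' 2 normalizations, out of 59 deposited columns, and 18193 genes with probe sets of exactly 1 gene symbol were tested. The mice were 4 weeks old (1 month) and of mixed FVB/NT, 129S1/Svlmj and C57BL/6NT background. Liver RNA was extracted with Trizol, and 5 µg of total RNA per sample was labelled as biotin cRNA. The 12 wild-type arrays (wt) of the same normalization entered the fit to share its estimate of the spread, and their levels are given as a reference. The locus and the copy number of the knock-in, whether 1KI mice carry further altered E2f alleles, and whether the alleles are altered in all tissues were not given in the sources used here. Nothing in the labels states that each array is a separate animal. The p-values therefore measure the spread between arrays, which may be technical.

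E2F proteins bind DNA with a DP partner and switch genes of DNA replication and mitosis on or off. E2F1 and E2F3a are counted among the activators, which pocket proteins such as RB hold in check until cyclin-dependent kinases release them. E2f3a is the product of one promoter of the E2f3 gene and E2f3b of another. In the liver of a young mouse hepatocytes are still leaving the cell cycle, and E2F activity is known to bear on their ploidy and on their lipid and glucose metabolism as well as on division.

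All levels below are log2 signals, and all changes are log2 differences, 1KI minus 3aKO, ± the moderated standard error of limma with 10 arrays in each genotype. A gene passed when its Benjamini-Hochberg adjusted p over all 18193 genes was under 0.05. "Rose" and "fell" are used of 1KI relative to 3aKO.

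One control signal separated the genotypes completely. The hybridization controls, added to the labelled cRNA, had a mean signal between 10.65 and 11.52 in 1KI and between 9.62 and 10.07 in 3aKO, a difference of 1.105 (permutation test, adjusted p = 0.00024 over 4 control measures). Of the 12 wt arrays, replicates 1 and 2 lay at the 1KI level and the other 10 at the 3aKO level. Poly-A controls, added before labelling, were also higher in 1KI, by 0.474 (permutation test, adjusted p = 0.00224). The mean 3' minus 5' signal of Actb and Gapdh, which gauges RNA integrity, differed by 0.015 (permutation test, adjusted p = 0.9997). The 1KI mean includes replicate 6, at 1.75. The other 1KI arrays lay between 0.445 and 0.665, and the 3aKO arrays between 0.54 and 0.745. Xist and Y-linked signal divided both genotypes 5 and 5. Genotype and hybridization control level cannot be told apart from the 20 arrays alone. A second fit with the level as a block links 1KI to 3aKO through wt and rests on 2 wt arrays. The mean of the sex-biased liver genes listed below was 9.68 and 9.73 in those arrays, wt replicates 1 and 2. It was 9.70 to 9.81 in wt replicates 8 to 12 and 10.10 to 10.40 in replicates 3 to 7. Xist and Y-linked signal divided the wt arrays 7 and 5. The side on which replicates 1 and 2 fell is not given here, so the block may hold a sex difference. Of 139 genes that passed and are named below, Cebpd not counted, 46 also passed with the level block, and the text says so for them. With a sex index added to the block 47 did. Some arrays stood apart in the gene lists below. They were 3aKO replicate 1 with high cell cycle genes, and 3aKO replicates 1 and 2 and 1KI replicate 3 with high immune genes. Another was 1KI replicate 6, with a 3' minus 5' signal of 1.75.

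The altered genes themselves moved little. E2f3 signal ranged from 7.50 to 7.97 (median 7.72) in 3aKO and from 7.63 to 8.13 (median 8.00) in 1KI, where 9 of 10 arrays lay above the 3aKO mean although the ranges overlap. Its change of 0.22 ± 0.07 passed (adjusted p = 0.022) and did not pass with the level block (0.48, adjusted p = 0.055). The probe sets do not tell E2f3a from E2f3b, and whether they lie in the deleted part was not given in the sources used here, so they do not check the 3aKO label. E2f1 ranged from 6.47 to 7.16 (median 6.62) in 3aKO and from 6.16 to 6.90 (median 6.32) in 1KI. Its change of -0.29 ± 0.11 was just past the threshold (adjusted p = 0.049), and the call was kept in 13 of 37 alternative fits. With the block the change was -0.31 and did not pass. The dimmer E2f1 probe sets had changes of -0.14 and -0.08. The inserted sequence was not given, so the E2f1 probe sets do not check the 1KI label.

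Of the other E2F and DP genes, E2f4, which encodes a repressor E2F, rose by 0.17 ± 0.05 (adjusted p = 0.013), and Tfdp2, a DP partner, fell by 0.25 ± 0.06 (adjusted p = 0.0027) at its brightest probe set. Of the other Tfdp2 probe sets, 1 also fell (-0.30), 1 did not pass (-0.18) and the dimmest changed in the opposite direction (0.42, adjusted p = 0.0031). The mean over them was -0.08 and did not pass. The activator E2f2 (-0.11), the repressors E2f5 (-0.10) and E2f6 (-0.04), the atypical repressors E2f7 (-0.14) and E2f8 (-0.15) and the DP partner Tfdp1 (0.01) did not pass at their brightest probe sets. A dimmer E2f6 probe set had a change of -0.22 (adjusted p = 0.0088) and a dimmer E2f8 probe set of 0.38 (adjusted p = 0.033). In all, 2 of the 10 members rose and 2 fell, with a median change of -0.10. Over all genes the median change was -0.03, and 31% of genes passed, 11.9% upward and 19% downward. Under the level block 0 of the 10 passed by limma, against 2.29% of all genes (E2f4 0.02, Tfdp2 -0.16). In that fit 1, E2f3, had an unadjusted p under 0.05, beside 2920 of all 18193 genes.

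Across the genome 5636 genes passed, 2174 of them higher and 3462 lower in 1KI, and 7400 genes had an unadjusted p under 0.05. When each array was centred on the median of all its probe sets, 1731 genes were higher and 4494 lower. Most changes were small: the median size of a called change was 0.28, 578 genes changed over 1.5-fold, and 101 changed over 2-fold, 46 upward and 55 downward. For 735 genes (4.04%) the arrays of the genotypes did not overlap, with 1KI higher for 2.2% of all genes and lower for 1.84%. With the level block 417 genes passed, 215 higher and 202 lower, and 360 of these had passed in the same direction without it, among them 50 of more than 2-fold. By the same fit 2920 genes had an unadjusted p under 0.05, and 460 of the 5636 calls turned in sign.

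**Figure D1:**
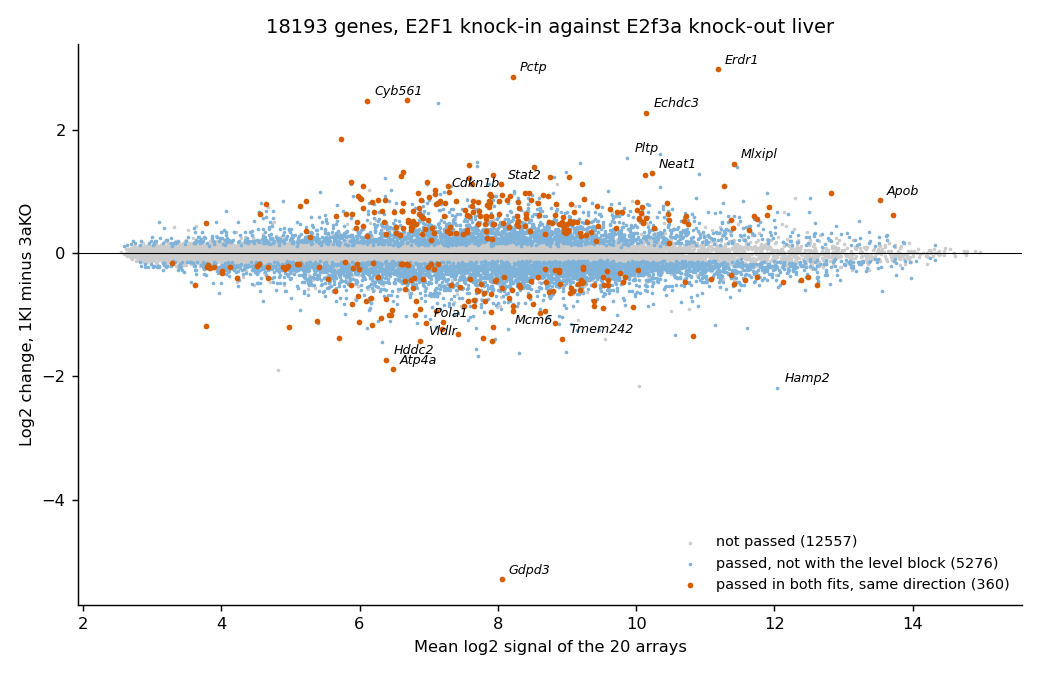
Mean log2 level of each of 18193 genes over the arrays of both genotypes (horizontal axis) against its log2 change, 1KI minus 3aKO (vertical axis). Of the 5636 genes past an adjusted p of 0.05, the 360 in orange passed in the same direction with the level block and those in blue did not, and grey points did not pass.

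Genes that make, carry or degrade phospholipids included large changes in both directions. Pctp, which encodes the protein that carries phosphatidylcholine between membranes, ranged from 5.43 to 8.07 (median 6.68) in 3aKO and from 8.47 to 10.70 (median 9.68) in 1KI. Every 1KI array lay above every 3aKO array, and the rise was 2.86 ± 0.31 (adjusted p = 1.9e-08). Gdpd3, which encodes a lysophospholipase D, ranged from 9.90 to 11.18 (median 10.74) in 3aKO and from 4.37 to 7.90 (median 4.95) in 1KI, and fell by 5.29 ± 0.49 (adjusted p = 1.2e-09). The genotypes did not overlap, but 1 of the 12 wt arrays, replicate 11, was at 5.28, inside the 1KI range. The wt mean lay within the 3aKO range for both genes, at 6.98 for Pctp and 10.34 for Gdpd3.

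Chka and Chkb encode the choline kinases that begin the route to phosphatidylcholine, and Pcyt2 the enzyme that activates phosphoethanolamine for phosphatidylethanolamine. Chka went from a range of 7.27 to 7.91 (median 7.86) in 3aKO to 8.27 to 9.07 (median 8.88) in 1KI, a rise of 1.01 ± 0.13 (adjusted p = 4.2e-07). Chkb went from 8.77 to 9.37 (median 9.04) to 9.50 to 10.36 (median 9.77), a rise of 0.76 ± 0.09. Pcyt2 went from 11.36 to 11.70 (median 11.55) to 12.12 to 12.72 (median 12.27), a rise of 0.75 ± 0.07 (adjusted p = 4.8e-10). For all of these genes the 2 genotypes did not overlap. The plasma phospholipid transfer protein gene Pltp rose by 1.55 ± 0.17, from 8.87 to 9.30 (median 9.12) to 9.58 to 11.41 (median 10.62), and Stard10, which encodes a phospholipid-binding START protein, by 0.26 ± 0.04. Ptdss1, which encodes a phosphatidylserine synthase, fell by 0.43 ± 0.06, again without overlap. Cept1, which encodes the transferase that ends both routes, did not pass (-0.11 ± 0.05). Of the 21 members 6 rose, 5 fell and 10 did not pass, 28.6% upward and 23.8% downward against 11.9% and 19% of all genes. Without overlap of the genotypes 6 rose and 2 fell, beside 2.2% and 1.84% of all genes. The median change of the list was nevertheless -0.02. With the level block Pctp (2.99), Chkb (0.63), Pcyt2 (0.70) and Gdpd3 (-5.89) passed, whereas Pltp (1.09, adjusted p = 0.076), Chka (0.79, adjusted p = 0.10), Stard10 (0.13) and Ptdss1 (-0.29) did not.

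**Figure D2:**
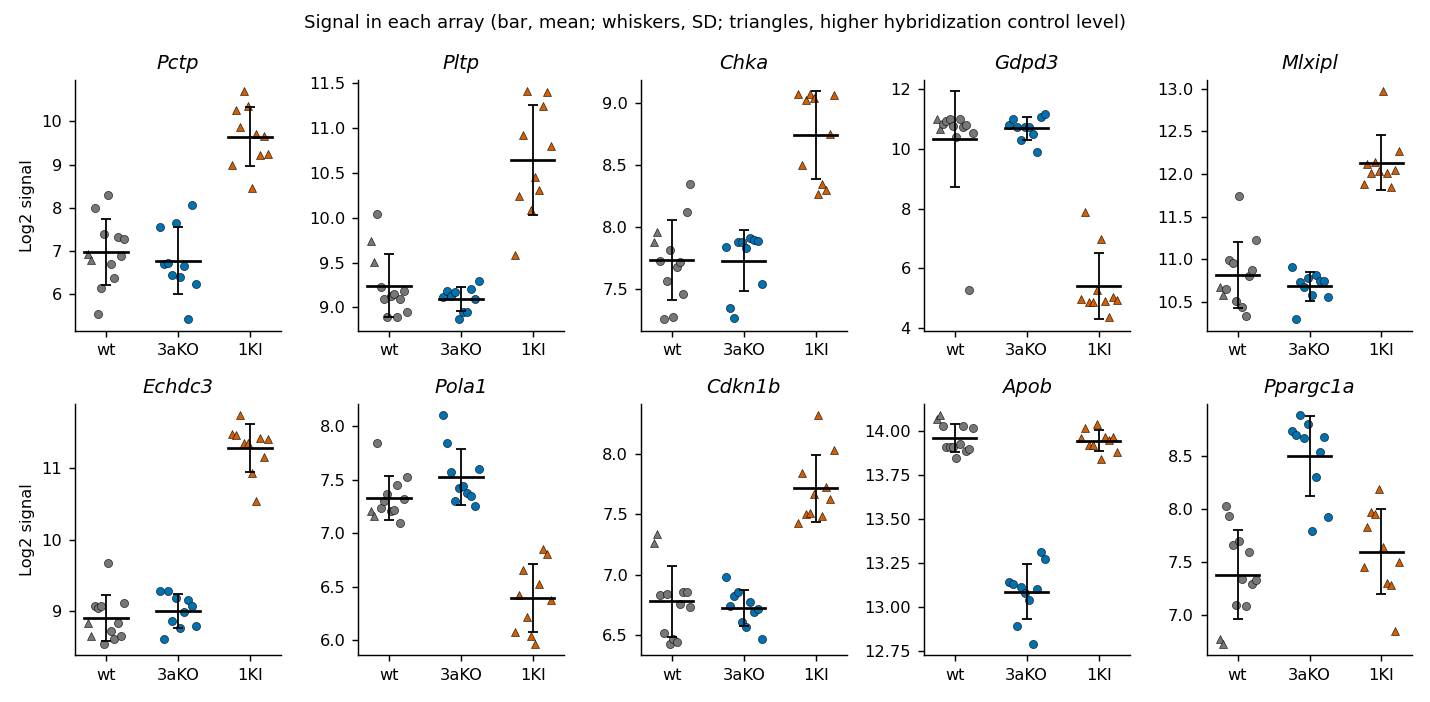
Log2 signal of 10 genes on every wt, 3aKO and 1KI array, 1 point per array, with triangles for arrays at the higher hybridization control level. Pctp, Echdc3 and Mlxipl are high and Gdpd3 and Pola1 low in 1KI with no overlap with 3aKO, while Apob and Ppargc1a depart from wt in 3aKO.

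The carbohydrate response factor ChREBP is encoded by Mlxipl, whose signal ranged from 10.30 to 10.91 (median 10.74) in 3aKO and from 11.85 to 12.97 (median 12.04) in 1KI. The rise of 1.45 ± 0.13 also passed with the block (1.67, adjusted p = 0.00045). Its partners in sugar handling did not move as one: Slc2a2, the gene of the liver glucose transporter, fell by 0.45 ± 0.08 (adjusted p = 2.4e-05), from 12.70 to 13.09 (median 12.83) to 11.88 to 12.68 (median 12.48), and Pfkl, which encodes liver phosphofructokinase, rose by 0.53 ± 0.10. In the fit with the level block the change of Pfkl was -0.03 and that of Slc2a2 -0.35 (adjusted p = 0.24). Of 15 members 3 rose and 3 fell, 20% each way against 11.9% and 19% of all genes, with a median change of 0.04.

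Further genes rose by more than 2-fold with no array of one genotype inside the range of the other, and kept their call with the level block. Echdc3, an enoyl-CoA hydratase domain gene, went from 8.62 to 9.29 (median 9.03) in 3aKO to 10.55 to 11.74 (median 11.38) in 1KI. Itih5, which encodes a hyaluronan-binding heavy chain of the inter-alpha-trypsin inhibitor family, went from 6.33 to 7.27 (median 6.90) to 7.48 to 8.82 (median 8.44). Chd3, which encodes a chromatin remodeller of the NuRD complex, rose by 1.23 ± 0.13 from 8.09 to 8.79 (median 8.39) to 8.87 to 10.30 (median 9.79). Pcp4l1 (1.40), Klhdc8b (1.32), Fam214a (1.27), Fam193b (1.24), Yae1d1 (1.27), Gm13306 (2.48) and Erdr1 (2.98) did the same. For some of these genes the highest wt array lay inside the 1KI range: Yae1d1 (8.46, wt replicate 11), Pcp4l1 (8.53), Fam193b (8.96) and Chd3 (9.03). The other probe set of Erdr1 had a change of 0.15, and the probe sets of Yae1d1 disagreed (-0.67 and 0.47 at the others), so neither rise holds for every probe set. Ctse, which encodes the protease cathepsin E, rose by 1.61 ± 0.21 without overlap and did not pass with the block (0.90, adjusted p = 0.26). Its other probe set changed in the opposite direction, by -0.31 (adjusted p = 0.039).

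Cyb561, which encodes an electron carrier that uses ascorbate, rose by 2.47 ± 0.23 and also passed with the block (2.71). It ranged from 4.59 to 5.18 (median 4.89) in 3aKO, near the lower end of the scale, and from 5.09 to 8.50 (median 7.33) in 1KI, so that 1KI replicate 1, at 5.09, lay inside the 3aKO range. Fam171b rose by 1.85 ± 0.23, from 4.46 to 5.10 (median 4.84) to 4.95 to 8.35 (median 6.65), with a like spread between the 1KI arrays, and passed with the block (2.10).

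Further genes fell without overlap and kept their call with the block. Tmem242 fell by 1.39 ± 0.08 from 9.46 to 9.91 (median 9.59) to 7.84 to 8.59 (median 8.31), although its other probe sets had changes of -0.08 and 0.22. Hddc2, an HD-domain gene, fell by 1.73 ± 0.11 from 7.02 to 7.56 (median 7.22) to 5.04 to 6.21 (median 5.38). Adat2, the catalytic subunit gene of a tRNA adenosine deaminase, fell by 1.31 ± 0.11, and Meiob, which encodes a protein that binds single-stranded DNA in meiosis, by 1.43 ± 0.11. S100a13, which encodes a calcium-binding protein, fell by 1.13 ± 0.09, Ank3, the ankyrin-G gene, by 1.37 ± 0.14, Gm4951 by 1.35 ± 0.12 and Cers3, a ceramide synthase gene, by 1.18 ± 0.13. For Ank3, wt replicates 11 and 12, at 7.57 and 7.56, lay inside the 1KI range of 6.48 to 7.69. The lowest wt array of Gm4951, at 11.10, lay just under its highest 1KI array, at 11.11. Cers3 signal lay between 2.81 and 5.07 over both genotypes, at the lower end of the scale. Atp4a (-1.88), which encodes a subunit of the gastric proton pump, Lrrc24 (-1.38) and the lipoprotein receptor gene Vldlr (-1.42) also kept their call with the block, with 1 or more arrays of each genotype overlapping.

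Cell cycle genes stood lower in 1KI than in 3aKO. Of 43 genes of the G1/S transition and DNA replication, 15 fell, 0 rose and 28 did not pass, 34.9% downward against 19% of all genes. The median change of the list was -0.33. Its mean level ranged from 7.45 to 8.89 (median 7.85) in 3aKO and from 7.20 to 8.10 (median 7.43) in 1KI, so that the genotypes overlapped. The highest of all was 3aKO replicate 1. Without it and 1KI replicate 6, 7 of the 43 members fell, beside 3427 of all 18193 genes. By limma 23 members had an unadjusted p under 0.05, all lower, beside 7400 of all 18193 genes in either direction. Under the level block 1 member fell, against 1.11% of all genes, and the median change was -0.07. For Mcm6, for example, the 2 wt arrays at the higher level averaged 7.79 beside 8.50 over all wt arrays. In bulk liver, fewer cells of a type and less RNA per cell cannot be told apart.

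Pola1, which encodes the catalytic subunit of DNA polymerase alpha, was the member that also passed with the block (-0.96, adjusted p = 0.018). It ranged from 7.25 to 8.10 (median 7.43) in 3aKO and from 5.97 to 6.85 (median 6.40) in 1KI, without overlap, though a dimmer probe set for the gene had a change of 0.06. Rfc3, which encodes a subunit of the clamp loader, ranged from 6.92 to 8.24 (median 7.30) in 3aKO and from 6.05 to 6.98 (median 6.49) in 1KI, and all 10 1KI arrays lay below the 3aKO mean. The wt means of Pola1 (7.33) and Rfc3 (7.29) lay within the 3aKO ranges. Mcm6, which encodes a subunit of the replicative helicase, varied more within each genotype, from 7.41 to 10.81 (median 8.61) in 3aKO and from 5.58 to 9.35 (median 7.47) in 1KI. Its call was lost without 3aKO replicate 1 (-1.0) or without 1KI replicate 1 (-1.01). Another clamp loader gene, Rfc4, fell by 0.68 ± 0.22, and without 3aKO replicate 1 and 1KI replicate 6 its change was -0.43 (adjusted p = 0.073). The helicase subunit gene Mcm5 had a change of -0.88 ± 0.39 and did not pass (adjusted p = 0.082). Under the block the changes were -0.36 for Rfc3, -0.38 for Mcm6 and -0.30 for Rfc4, and none passed.

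The promoters of these genes are shown because the G1/S list is the one in which E2F motifs are known to be common. Letters matching TTTCCCGC, TTTGGCGC, TTTCGCGC or TTTGCCGC on either strand were searched in the 300 bases around the start of each gene in the RefSeq annotation of GRCm38.p6, and matches may overlap each other. Of 18193 genes 14452 had a promoter in the table, and 550 of these (3.81%) held at least 1 match. In the G1/S list 16 of 36 members with a promoter held a match (44.4%). Among the members that fell the count was 3 of 13 (23.1%), namely Pola1, Mcm6 and Rfc3, and among those that did not pass 13 of 23 (56.5%). In the list of G2/M and mitosis genes it was 1 of 26 (3.85%). The promoters of the members that fell with a match, and of Mcm5, which did not pass, run 5′ to 3′ on the strand of the gene with the matches in capitals. They lie at chrX:93632106-93632405, minus strand (Pola1), chr1:128359656-128359955, minus strand (Mcm6), chr5:151651159-151651458, minus strand (Rfc3) and chr8:75109259-75109558, plus strand (Mcm5).
Pola1 promoter: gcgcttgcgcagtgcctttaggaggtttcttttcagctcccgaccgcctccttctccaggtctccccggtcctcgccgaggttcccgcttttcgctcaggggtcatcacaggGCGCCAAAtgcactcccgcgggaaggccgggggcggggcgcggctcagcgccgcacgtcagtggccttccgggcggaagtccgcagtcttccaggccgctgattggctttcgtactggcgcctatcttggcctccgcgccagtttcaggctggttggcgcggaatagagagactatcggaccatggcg
Mcm6 promoter: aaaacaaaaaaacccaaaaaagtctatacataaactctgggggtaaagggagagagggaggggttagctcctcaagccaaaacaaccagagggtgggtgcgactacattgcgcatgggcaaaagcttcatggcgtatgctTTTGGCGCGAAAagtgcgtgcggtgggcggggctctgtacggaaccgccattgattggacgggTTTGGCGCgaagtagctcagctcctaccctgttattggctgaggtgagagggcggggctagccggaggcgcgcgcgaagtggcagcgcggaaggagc
Rfc3 promoter: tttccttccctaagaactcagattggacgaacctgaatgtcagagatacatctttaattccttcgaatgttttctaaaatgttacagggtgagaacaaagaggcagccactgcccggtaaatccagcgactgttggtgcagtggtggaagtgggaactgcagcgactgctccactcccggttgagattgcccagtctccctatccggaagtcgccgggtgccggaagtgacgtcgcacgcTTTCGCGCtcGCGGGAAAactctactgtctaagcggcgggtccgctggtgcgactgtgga
Mcm5 promoter: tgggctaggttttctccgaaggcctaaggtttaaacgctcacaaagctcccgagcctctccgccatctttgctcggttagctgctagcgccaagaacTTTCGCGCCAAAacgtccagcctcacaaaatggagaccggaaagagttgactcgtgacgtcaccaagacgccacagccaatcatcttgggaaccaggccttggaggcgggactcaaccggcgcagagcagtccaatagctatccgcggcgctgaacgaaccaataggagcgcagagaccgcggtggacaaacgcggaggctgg

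The run of capitals in Mcm5 holds a pair of overlapping matches, as does the first run in Mcm6, which has a further match nearer its start, and Rfc3 holds 2 matches separated by a pair of bases. Mcm6 and Mcm5, each with overlapping matches, had similar ranges in both genotypes and similar changes, of which 1 passed. A match in letters is not a binding site, and no binding was measured here.

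Of 31 genes of G2/M and mitosis 9 fell and 0 rose, 29% downward against 19% of all genes, with a median change of -0.33. Ube2c, whose enzyme passes ubiquitin on at mitotic exit, ranged from 6.70 to 8.57 (median 7.35) in 3aKO and from 5.63 to 7.46 (median 6.59) in 1KI. Mad2l1, of the spindle checkpoint, ranged from 7.54 to 9.54 (median 8.34) and from 7.02 to 8.18 (median 7.61). In both genes every 1KI array lay below the 3aKO mean, yet the ranges overlap. Cdk1, the kinase gene of mitotic entry, fell by 0.66 ± 0.23, a call lost without 3aKO replicate 1 (-0.51) or 1KI replicate 1 (-0.55). The number of members that fell was 5 without 3aKO replicate 1, 5 or 9 or without 1KI replicate 5, 4 without 1KI replicate 1, and 5 without both 3aKO replicate 1 and 1KI replicate 6. Of all 18193 genes 3088 to 3474 fell with 1 array left out, and 3427 without both of these arrays. With the level block 0 members passed by limma and 3 had an unadjusted p under 0.05, beside 2920 of all 18193 genes. Ube2c then had a change of -0.96, Mad2l1 of -0.49 and Cdk1 of -0.34.

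Of 22 genes of DNA repair and its checkpoints 6 fell and 0 rose, 27.3% downward against 19% of all genes. By limma 9 had an unadjusted p under 0.05, all lower, beside 7400 of all 18193 genes in either direction. Xrcc6, which encodes the Ku70 protein of end joining, fell by 0.66 ± 0.07 (adjusted p = 6.3e-09), from 8.10 to 8.35 (median 8.21) in 3aKO to 7.03 to 7.87 (median 7.59) in 1KI, and passed with the block (-0.61). Psmc3ip, whose protein assists strand exchange in recombination, was steady in 3aKO at 8.32 to 8.65 (median 8.50) and spread from 5.76 to 8.24 (median 7.00) in 1KI. Its fall of 1.56 ± 0.23 was without overlap, and with the block the change was -1.54 (adjusted p = 0.067). The mismatch repair gene Msh6 fell by 0.49 ± 0.12 and did not pass with the block (-0.25).

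**Figure D3:**
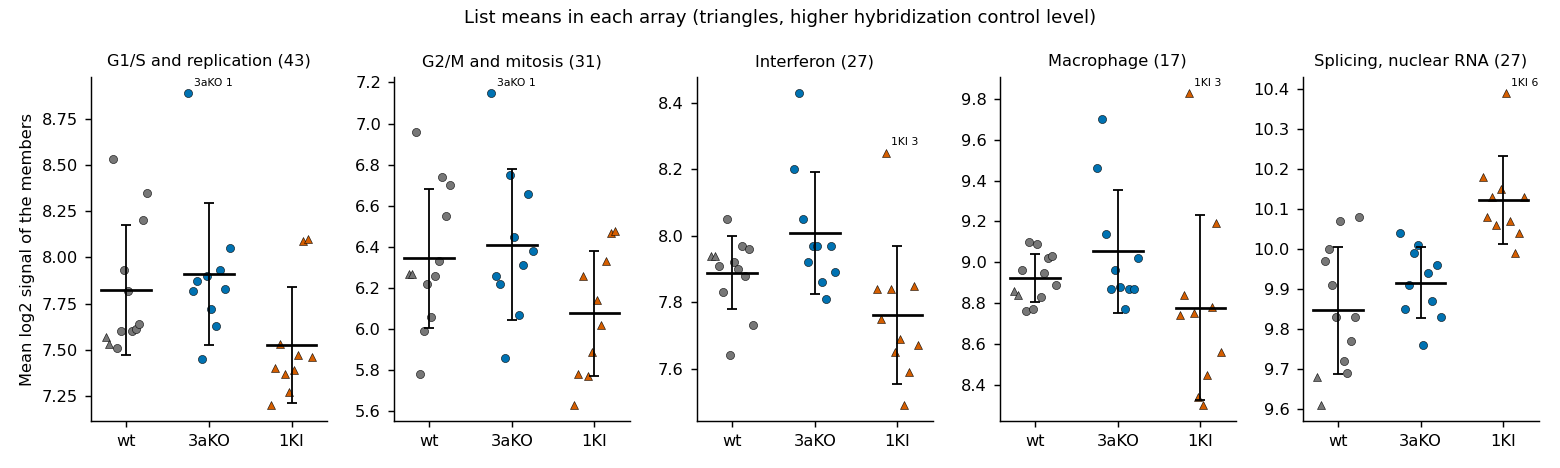
Mean log2 level of 5 gene lists on every array of wt, 3aKO and 1KI, 1 point per array. For the G1/S list the highest point is 3aKO replicate 1, for the macrophage list 1KI replicate 3, and for the splicing list 1KI replicate 6.

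Inhibitors of the cyclin-dependent kinases moved in opposite directions. Cdkn1b, which encodes p27, ranged from 6.47 to 6.98 (median 6.73) in 3aKO and from 7.43 to 8.32 (median 7.65) in 1KI, and rose by 0.99 ± 0.11 (adjusted p = 2.2e-08). The genotypes did not overlap, but the 2 wt arrays at the higher hybridization control level averaged 7.30 beside 6.78 over all wt arrays, and with the block the change was 0.37 (adjusted p = 0.31). A dimmer Cdkn1b probe set had a change of -0.28. Cdkn1a, which encodes p21, ranged from 7.18 to 7.83 (median 7.49) in 3aKO and spread from 6.96 to 9.47 (median 8.30) in 1KI, with 9 of 10 arrays above the 3aKO mean. The INK4 inhibitor genes Cdkn2c and Cdkn2d fell by 0.44 ± 0.08 (adjusted p = 7.5e-05) and 0.37 ± 0.11 (adjusted p = 0.0079). Under the block the changes of Cdkn1a (1.12, adjusted p = 0.14), Cdkn2c (-0.25) and Cdkn2d (-0.41) did not pass.

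Of the pocket proteins, Rbl1, which encodes p107, ranged from 6.80 to 8.54 (median 7.06) in 3aKO and from 5.58 to 7.21 (median 6.54) in 1KI, and fell by 0.65 ± 0.20 (adjusted p = 0.011). Rb1 (-0.27, adjusted p = 0.059) and Rbl2 (0.04) did not pass. The G1 cyclin gene Ccnd3 rose by 0.26 ± 0.07 and the kinase gene Cdk2 fell by 0.30 ± 0.09, while Ccnd1 (-0.33) and Ccne1 (-0.17) did not pass. The dimmer Ccnd1 probe sets had changes of -0.55 (adjusted p = 0.012) and -0.09. The block gave a change of -0.28 for Rbl1, 0.05 for Ccnd3 and 0.02 for Cdk2. Of the 19 pocket proteins, cyclins, kinases and inhibitors 3 rose, 5 fell and 11 did not pass. The shares were 15.8% upward and 26.3% downward, against 11.9% and 19% of all genes. With the block 0 passed by limma while 1 in each direction had an unadjusted p under 0.05, beside 2920 of all 18193 genes.

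Apob, whose protein holds very-low-density lipoprotein together, was among the genes that also differed between 3aKO and wt. Apob ranged from 12.79 to 13.31 (median 13.11) in 3aKO and from 13.84 to 14.04 (median 13.96) in 1KI, without overlap, and averaged 13.96 in wt. The rise of 0.86 ± 0.05 passed with the block (0.72), but the dimmer Apob probe set had a change of -1.02. The fatty acid desaturase gene Scd1 ranged from 13.04 to 13.89 (median 13.43) in 3aKO and from 13.63 to 14.37 (median 14.04) in 1KI, with wt at 13.85, and passed in both fits (0.62 ± 0.10, and 0.80 with the block). Ppargc1a, a coactivator gene of mitochondrial and gluconeogenic programmes, ranged from 7.79 to 8.88 (median 8.68) in 3aKO and from 6.85 to 8.19 (median 7.57) in 1KI, with wt at 7.38. Its fall of 0.91 ± 0.17 did not pass with the block (-0.15). The other Ppargc1a probe sets had changes between -0.40 and -0.13, of which those of -0.24 and -0.13 did not pass. Kdm5a, a histone demethylase gene, fell by 0.80 ± 0.09 without overlap at its brightest probe set (others lay between -0.51 and 0.28), with medians of 8.66 in 3aKO and 7.88 in 1KI and a wt mean of 8.07, and with the block its change was -0.19. Mme, the neprilysin gene, fell by 0.90 ± 0.21 from a median of 9.09 to 8.13 (wt mean 8.01). Septin10, a septin family gene, fell by 0.50 ± 0.11 from a median of 8.04 to 7.45 (wt mean 7.37). The sulfurtransferase gene Mpst rose by 0.75 ± 0.14 from a median of 9.18 to 9.92 (wt mean 9.79). Under the block the changes of Mme (-0.78), Septin10 (-0.59) and Mpst (0.12) did not pass. Celf2, an RNA-binding protein gene, had a median of 8.70 in 1KI, 8.69 in 3aKO and a wt mean of 8.13 at its brightest probe set, which did not pass (-0.09 ± 0.10, adjusted p = 0.53), while another Celf2 probe set fell by 0.32 (adjusted p = 0.0076). All of these genes also passed in 3aKO against wt, where 0.176% of genes did, and both comparisons share the 3aKO arrays.

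Of 21 genes of fatty acid synthesis 6 rose (28.6%, against 11.9% of all genes) and 3 fell (14.3%, against 19%), with a median change of 0.13. Lpin1, which encodes a phosphatidate phosphatase, rose by 0.97 ± 0.25 from 10.11 to 12.19 (median 11.54) to 10.86 to 13.10 (median 12.44), with overlap. Mid1ip1 and Thrsp, whose proteins act on acetyl-CoA carboxylase and lipogenesis, fell by 0.44 ± 0.10 and 0.40 ± 0.13. Of 21 genes of cholesterol synthesis and uptake 3 rose and 3 fell, 14.3% each way. The regulator gene Srebf2 rose by 0.54 ± 0.09 and the synthesis gene Dhcr7 by 0.46 ± 0.15, whereas Stard4, which encodes a cholesterol transport protein, fell by 0.60 ± 0.07 without overlap, from 11.55 to 11.98 (median 11.80) to 10.90 to 11.38 (median 11.21). With the block Stard4 had a change of -0.20 (adjusted p = 0.45), and Lpin1 (1.45, adjusted p = 0.12), Mid1ip1 (-0.63), Thrsp (-0.21), Srebf2 (0.34) and Dhcr7 (0.62) did not pass either.

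Of 19 lipoprotein genes 4 rose and 4 fell, 21.1% each way against 11.9% and 19% of all genes. The endocytic receptor gene Lrp1 rose by 0.44 ± 0.08, and with the block its change was 0.11. Of 20 genes of bile acid synthesis and transport 2 rose (10%) and 6 fell (30%), with a median change of -0.18. Klb, which encodes the hepatic co-receptor of FGF15, fell by 0.60 ± 0.10, Abcc2, which encodes a canalicular export pump, by 0.54 ± 0.08, and Akr1d1, which encodes a reductase of bile acid synthesis, by 0.71 ± 0.18. With the block these changes were -0.41, -0.19 and -0.04, and none passed. When a sex index was added to the block they were -0.49, -0.15 and -0.30, and none passed either. With arrays centred on the median of all probe sets 10 members of the bile acid list fell, beside 4494 of all 18193 genes.

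Of 18 genes of gluconeogenesis and fasting 9 rose and 1 fell, 50% upward against 11.9% of all genes, with a median change of 0.19. Irs2, which encodes an insulin receptor substrate, rose by 0.87 ± 0.16 from 6.74 to 7.68 (median 7.05) to 7.28 to 8.55 (median 7.99). Angptl4, whose protein inhibits lipoprotein lipase, ranged from 9.72 to 10.62 (median 10.13) in 3aKO and from 9.67 to 11.14 (median 11.05) in 1KI, where 1KI replicate 1 was the low array. Pdk4, the kinase gene that closes pyruvate dehydrogenase, rose by 0.78 ± 0.19, and Igfbp1, which encodes an IGF-binding protein, ranged from 7.38 to 9.95 (median 8.54) and from 7.51 to 11.37 (median 10.33). Of 18 metallothionein and glucocorticoid response genes 8 rose and 1 fell, 44.4% upward, with a median change of 0.50. Arrdc2, an arrestin domain gene, rose by 1.48 ± 0.19 from 6.51 to 7.75 (median 6.91) to 7.54 to 9.28 (median 8.37), the metallothionein gene Mt2 by 1.40 ± 0.43, Fkbp5, which encodes a chaperone of the glucocorticoid receptor, by 0.89 ± 0.20 and Ddit4, which encodes an inhibitor of mTORC1, by 0.85 ± 0.15. In the fit with the level block 0 members of either list passed by limma. An unadjusted p under 0.05 was reached there by 1 fasting gene, upward, and by 8 glucocorticoid genes upward and 1 downward, beside 2920 of all 18193 genes. The change of Arrdc2 was then 1.39 (adjusted p = 0.053) and that of Ddit4 1.00 (adjusted p = 0.078). The same fit gave 0.52 for Irs2, 0.59 for Angptl4, 0.72 for Pdk4, 2.06 for Igfbp1, 1.82 for Mt2 and 1.15 for Fkbp5.

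Clock genes split evenly, with 5 of 21 higher and 5 lower, 23.8% each way against 11.9% and 19% of all genes. The repressor gene Nfil3 rose by 0.86 ± 0.23 and the output genes Dbp, Noct and Wee1 fell by 1.21 ± 0.29, 0.85 ± 0.24 and 0.76 ± 0.20. Dbp was tight in 3aKO, from 11.58 to 12.51 (median 12.27), and spread from 9.25 to 12.65 (median 11.15) in 1KI. The list mean was lowest in 1KI replicate 1 (8.25) and highest in 1KI replicate 6 (9.11). Under the block 0 of the 21 passed by limma, while 1 higher and 4 lower members had an unadjusted p under 0.05, beside 2920 of all 18193 genes. The changes were then 0.64 for Nfil3, -1.63 for Dbp, -0.83 for Noct and -0.70 for Wee1.

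Interferon-stimulated genes were mostly lower in 1KI. Of 27 members 15 fell and 3 rose, 55.6% downward against 19% of all genes, with a median change of -0.29. The list mean was 8.20 and 8.43 in 3aKO replicates 1 and 2 and 7.81 to 8.05 in the other 3aKO arrays. Ifit3, which encodes an antiviral protein, ranged from 7.58 to 8.81 (median 8.10) in 3aKO and from 7.05 to 7.85 (median 7.48) in 1KI, and fell by 0.68 ± 0.10 (adjusted p = 4.0e-06). The GTPase gene Gbp2 and the chemokine gene Cxcl10 fell by 0.99 ± 0.29 and 0.68 ± 0.20, and in both the highest 1KI array was replicate 3, at 9.62 and 7.92. Stat2, which encodes a signal transducer of the interferon receptor, went the other way: it ranged from 7.28 to 7.67 (median 7.48) in 3aKO and from 8.33 to 8.94 (median 8.59) in 1KI, without overlap. Its rise of 1.12 ± 0.09 passed with the block (1.02, adjusted p = 0.0011), where no other member did. Ifit3 then had a change of -0.59 (adjusted p = 0.13), Gbp2 of -0.95 and Cxcl10 of -0.98. The median change of the list was -0.27 in that fit. By limma 11 members were lower and 1 higher at an unadjusted p under 0.05, beside 2920 of all 18193 genes. Of 8 MHC class II genes 3 fell (37.5%) and 1 rose (12.5%, against 11.9% of all genes). Their mean was 7.90 and 7.70 in 3aKO replicates 1 and 2 and 6.76 to 7.33 in the other 3aKO arrays. H2-Aa fell by 1.24 ± 0.28, H2-Ab1 by 1.03 ± 0.28 and H2-DMa by 0.64 ± 0.18, each with 1 1KI array above the 3aKO mean. None passed with the block, at -1.15, -0.92 and -0.58 in the same order, and the list median was -0.42 there against -0.22 without it.

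Markers of other cells moved beside these genes. Of 17 macrophage and Kupffer cell markers 6 fell, 0 rose and 11 did not pass, with a median change of -0.26. The share that fell was 35.3%, against 19% of all genes. By limma 1 had an unadjusted p under 0.05 upward and 9 downward, beside 7400 of all 18193 genes in either direction. The mean level of these markers ranged from 8.77 to 9.70 (median 8.92) in 3aKO and from 8.30 to 9.83 (median 8.75) in 1KI, where replicate 3 was the highest of all arrays. In 3aKO, replicates 1 and 2 stood at 9.46 and 9.70 and the other arrays at 8.77 to 9.14. The scavenger receptor gene Marco fell by 0.90 ± 0.26, Timd4 and Vsig4, which mark resident Kupffer cells, by 0.64 ± 0.15 and 0.53 ± 0.15, and the macrophage gene Mpeg1 by 0.49 ± 0.16. The brightest markers that did not pass were Clec4f and Cd5l. Of 15 lymphocyte markers 4 fell (26.7%) and 1 rose (6.67%), with a mean level of 6.00 to 6.50 in 3aKO and of 5.91 to 6.22 in 1KI. The T cell receptor gene Cd3g, dim throughout, fell by 0.61 ± 0.11. Under the block 0 macrophage markers passed by limma, with 1 higher and 1 lower at an unadjusted p under 0.05, beside 2920 of all 18193 genes. Marco then had a change of -1.18, Timd4 of -0.31, Vsig4 of -0.32, Mpeg1 of -0.51 and Cd3g of -0.49. The part of these cells in the lower interferon and MHC class II genes was not tested.

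Of 28 acute phase genes 9 rose and 1 fell, 32.1% upward against 11.9% of all genes, with a median change of 0.24. The serum amyloid gene Saa1 ranged from 9.75 to 11.15 (median 10.16) in 3aKO and from 9.56 to 13.97 (median 11.38) in 1KI, with 8 of 10 arrays above the 3aKO mean. Il6ra, the interleukin 6 receptor gene, rose by 0.78 ± 0.15 and Il1r1, the interleukin 1 receptor gene, by 0.68 ± 0.15. Hc, which encodes complement C5, rose by 0.60 ± 0.12 without overlap, from 10.88 to 11.39 (median 11.09) to 11.41 to 12.85 (median 11.57), the highest array being 1KI replicate 6. With the block 1 acute phase member, Cebpd (0.91), rose, a transcription factor gene singled out after its value was known. For the others named here the changes were 0.74 for Saa1, 0.77 for Il6ra, 0.85 for Il1r1 and 0.81 for Hc (adjusted p = 0.069).

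Slc40a1, which encodes the iron exporter ferroportin, ranged from 12.51 to 12.66 (median 12.61) in 3aKO and from 11.83 to 12.36 (median 12.18) in 1KI, and its fall of 0.43 ± 0.04 passed with the block (-0.37, adjusted p = 0.023). Hamp2, a hepcidin gene, ranged from 12.39 to 13.86 (median 12.96) in 3aKO and from 9.89 to 13.16 (median 10.86) in 1KI and fell by 2.18 ± 0.30, while its other probe set had a change of -0.12. Hamp, the main hepcidin gene, did not pass (0.17 ± 0.10). Its near-identical neighbour makes the assignment of signal between the hepcidin genes uncertain. The heme oxygenase gene Hmox1 fell by 0.43 ± 0.10. Neither Hamp2 (-1.67, adjusted p = 0.14) nor Hmox1 (-0.26) passed with the block. Of the 17 iron genes 3 rose (17.6%, against 11.9% of all genes) and 5 fell (29.4%, against 19%).

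Of 27 genes of splicing and nuclear RNA 13 rose and 5 fell, 48.1% upward against 11.9% of all genes, and the median change was 0.17. The mean level of the list ranged from 9.76 to 10.04 (median 9.93) in 3aKO and from 9.99 to 10.39 (median 10.11) in 1KI. Snrnp70, which encodes a protein of the U1 particle, ranged from 8.29 to 8.66 (median 8.44) in 3aKO and from 9.07 to 9.62 (median 9.20) in 1KI, and rose by 0.79 ± 0.07 without overlap (adjusted p = 1.2e-09). Srsf11, which encodes an SR-type splicing factor, rose by 0.70 ± 0.11 and Luc7l2, of the U1 particle, by 0.63 ± 0.09, both without overlap. Clk1, the kinase gene of SR proteins, rose by 0.49 ± 0.11, and the SR protein genes Srsf6 and Srsf5 by 0.53 ± 0.10 and 0.61 ± 0.16. The other Srsf6 probe sets had changes of 0.04, 0.11 and 0.02, none of which passed, and the mean over its probe sets was 0.18 and did not pass. The nuclear RNA Neat1 rose by 1.30 ± 0.30, with a change of 0.09 at another probe set. Cirbp, which encodes a cold-inducible RNA-binding protein, fell by 0.61 ± 0.16 and had a change of -0.08 with the block.

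With the level block 7 of these 27 genes passed, all higher, against 1.18% of all genes upward, and the median change was 0.27. Among them were Snrnp70 (0.78), Srsf11 (1.03), Clk1 (0.78), Srsf5 (1.43), Srsf6 (0.95) and Neat1 (2.33), whereas Luc7l2 (0.55, adjusted p = 0.081) did not pass. 1KI replicate 6 was the highest array of the list. Without it and 3aKO replicate 1, 12 members rose and 3 fell, beside 2177 and 3427 of all 18193 genes. Of 27 proteasome subunit genes 11 fell and 0 rose, 40.7% downward against 19% of all genes, by small amounts: the median change was -0.12. Psma7, a core particle gene, fell by 0.37 ± 0.06 without overlap, and the regulatory particle genes Psmc1 and Psmd1 by 0.28 ± 0.07 and 0.26 ± 0.05. With the block 0 passed by limma (Psma7 -0.18, Psmc1 -0.23, Psmd1 -0.14), and 3 had an unadjusted p under 0.05, all lower, beside 2920 of all 18193 genes. With arrays centred on the median of all probe sets 17 fell, beside 4494 of all genes.

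Conjugation enzymes of drug and hormone metabolism fell in 9 of 19 cases and rose in 0, 47.4% downward against 19% of all genes, with a median change of -0.18. Sult1c2, a sulfotransferase gene, ranged from 7.95 to 9.06 (median 8.52) in 3aKO and from 7.03 to 7.59 (median 7.35) in 1KI, and fell by 1.20 ± 0.12 without overlap. The sulfotransferase genes Sult1b1 and Sult1a1 fell by 0.69 ± 0.08 and 0.50 ± 0.15. Both Sult1c2 (-1.18) and Sult1b1 (-0.58) passed with the block. Of 28 genes of cytochrome P450 families 1 to 3, 4 rose (14.3%, against 11.9% of all genes) and 8 fell (28.6%). Cyp2d22 fell by 0.46 ± 0.06 without overlap, from 12.23 to 12.50 (median 12.38) to 11.67 to 12.09 (median 11.95), and passed with the block (-0.58). Cyp2g1 fell by 1.62 ± 0.23 from 8.42 to 10.12 (median 9.12) to 7.01 to 8.52 (median 7.43) and had a change of -1.51 with the block (adjusted p = 0.081). Of 18 genes of the NRF2 response 5 fell (27.8%) and 0 rose. Those that fell included the quinone reductase gene Nqo1 (-0.69) and the glutathione transferase gene Gsta4 (-0.47). The block gave -0.15 for Sult1a1, -0.15 for Nqo1 and -0.33 for Gsta4, none of which passed.

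Of 22 genes of the fetal liver and the IGF axis 2 rose (9.09%, against 11.9% of all genes) and 7 fell (31.8%, against 19%). Igfbp3, an IGF-binding protein gene, fell by 0.63 ± 0.08 from 9.24 to 9.81 (median 9.54) to 8.43 to 9.29 (median 8.93). The imprinted genes Plagl1 and Peg3 went opposite ways, by -0.76 ± 0.09 and 0.66 ± 0.19, and both passed with the block (-0.65 and 1.32), although without the less specific _x_at probe sets the change of Plagl1 was 0.07. Of 18 sex-biased liver genes 4 fell (22.2%) and 0 rose. Hao2, a hydroxyacid oxidase gene, fell by 1.17 ± 0.29 and Cux2, a female-biased homeobox gene, by 0.39 ± 0.06 without overlap, with wt (8.46) near 1KI. Cux2 passed with the block (-0.49, adjusted p = 0.016), but its dimmer probe sets had changes of -0.11 and 0.10. The genotypes held the same numbers of arrays by Xist and Y-linked signal. In amino acid breakdown, where 5 of 28 genes rose (17.9%) and 2 fell (7.14%), the urea cycle gene Ass1 rose by 0.90 ± 0.21 and the kynureninase gene Kynu fell by 0.61 ± 0.18. Under the block Igfbp3 (-0.55, adjusted p = 0.06), Hao2 (-0.51), Ass1 (1.39, adjusted p = 0.062) and Kynu (-0.73) did not pass.

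The hepatocyte markers, which check the liver label, were all 10 present among the genes tested, and their mean level lay between 14.00 and 14.17 in 1KI and between 14.03 and 14.16 in 3aKO. The albumin gene Alb ranged from 14.91 to 15 in 1KI and from 14.93 to 14.99 in 3aKO, near the top of the scale, and the apolipoprotein gene Apoa1 from 14.72 to 14.87 and from 14.72 to 14.81. Neither passed. Of the 10 markers 2 rose (20%, against 11.9% of all genes), Asgr1, which encodes the asialoglycoprotein receptor, and the hepatocyte nuclear factor gene Hnf4a, each by 0.14. The other Hnf4a probe sets had changes of -0.02, 0.37 and 0.61, of which only the last passed. The mean over the Hnf4a probe sets was 0.27 and did not pass. Of 16 sinusoidal endothelial markers 5 rose (31.2%, against 11.9% of all genes), 1 fell (6.25%) and 10 did not pass. Lyve1, a hyaluronan receptor gene, was up by 0.72 ± 0.21, Flt4, the VEGF receptor 3 gene, by 0.49 ± 0.07 and Egfl7 by 0.38 ± 0.08. Clec4g and Fcgr2b were the brightest of those that did not pass. Asgr1 (0.10), Hnf4a (0.02), Lyve1 (0.67), Flt4 (0.41) and Egfl7 (0.40) did not pass with the block. Of 10 neutrophil markers 0 passed by limma, against 31% of all genes, and 0 had an unadjusted p under 0.05, beside 7400 of all 18193 genes.

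The shares in the following lists stand against 11.9% of all genes upward and 19% downward. Of 20 p53 target genes 5 rose (25%) and 2 fell (10%). Of 28 complement and coagulation genes 2 rose (7.14%) and 5 fell (17.9%), and of 25 PPAR alpha targets 4 rose (16%) and 2 fell (8%). Of 16 heat shock genes 1 rose (6.25%) and 0 fell. Of 22 genes of the unfolded protein response 0 rose and 4 fell (18.2%), or 2 without 3aKO replicate 1 and 1KI replicate 6. Of 27 oxidative phosphorylation genes 2 rose (7.41%) and 7 fell (25.9%), or 4 fell without 3aKO replicate 2, 3aKO replicate 8 or 1KI replicate 3. Of 15 stellate cell markers 0 rose and 2 fell (13.3%), and of 7 cholangiocyte markers 2 rose (28.6%) and 1 fell (14.3%). Of 8 erythroid (12.5% each way) and 7 pancreatic acinar markers (14.3% each way) 1 rose and 1 fell in each list.

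**Figure D4:**
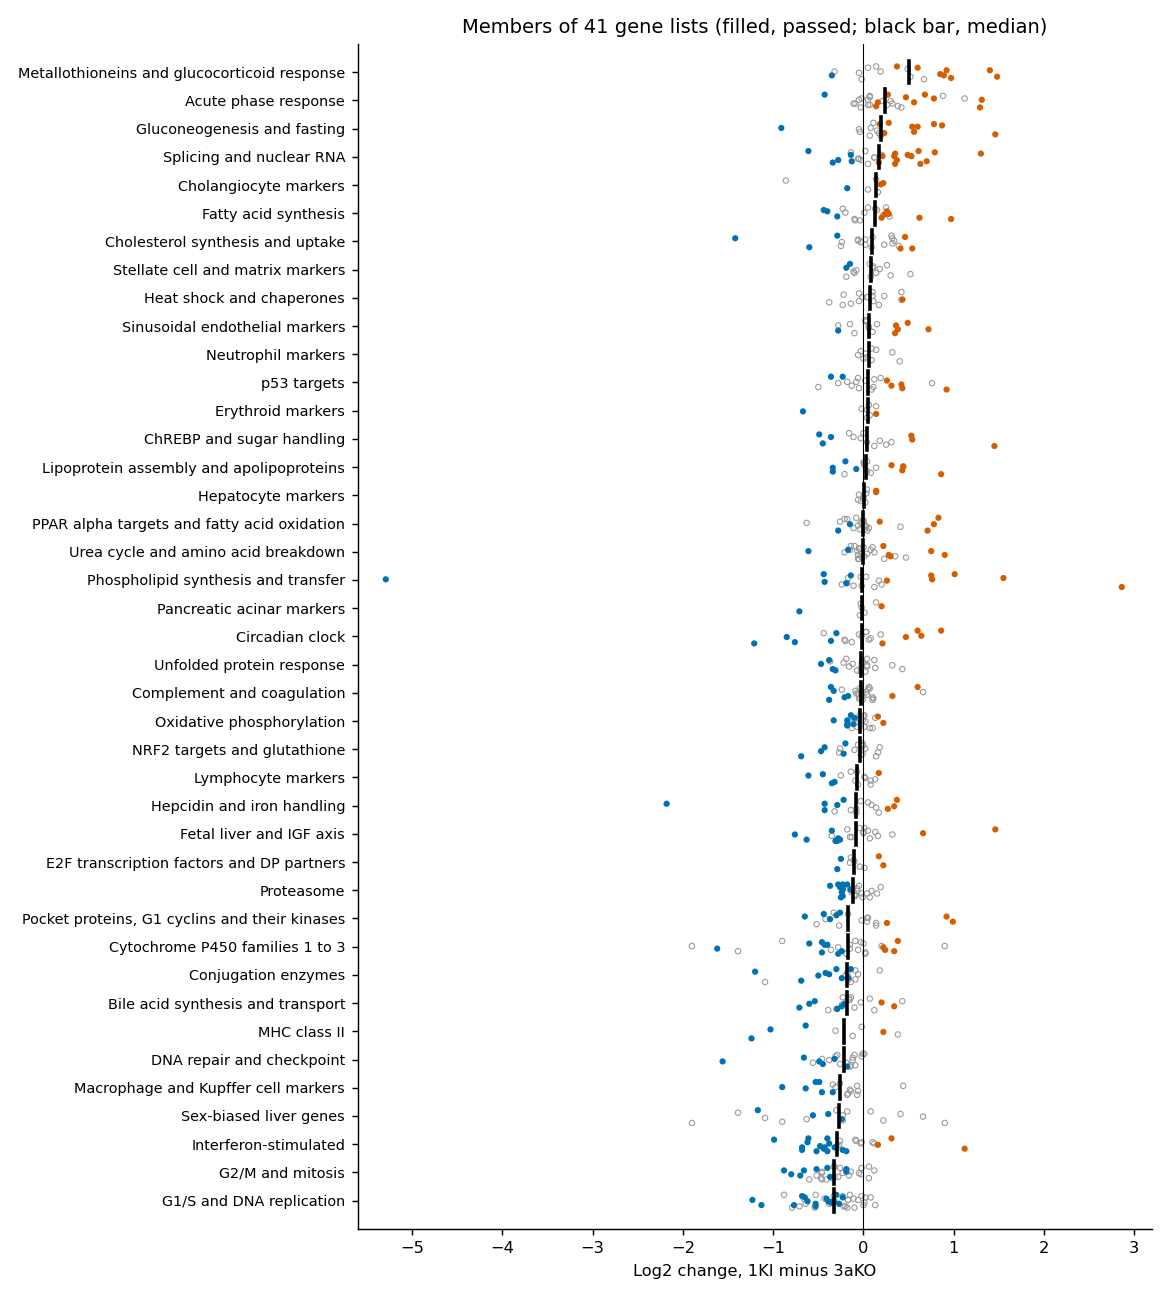
Log2 change, 1KI minus 3aKO, of every tested member of 41 gene lists, 1 row per list and 1 point per gene. The splicing, glucocorticoid and fasting lists lie mostly to the right of 0 and the G1/S, G2/M and interferon lists mostly to the left.

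Of 139 genes named in the text that passed, Cebpd not counted, 46 also passed with the level block and 93 did not. Those that did were spread over lists: Pctp, Gdpd3, Chkb and Pcyt2 among phospholipid genes, Mlxipl among sugar genes, Pola1 and Xrcc6 among cell cycle and repair genes, Stat2, Slc40a1, Sult1c2, Cyp2d22 and the splicing genes above. Between 1KI and the 2 wt arrays of the higher level alone 174 genes passed, and between 3aKO and the 10 wt arrays of the lower level 17.

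**Figure D5:**
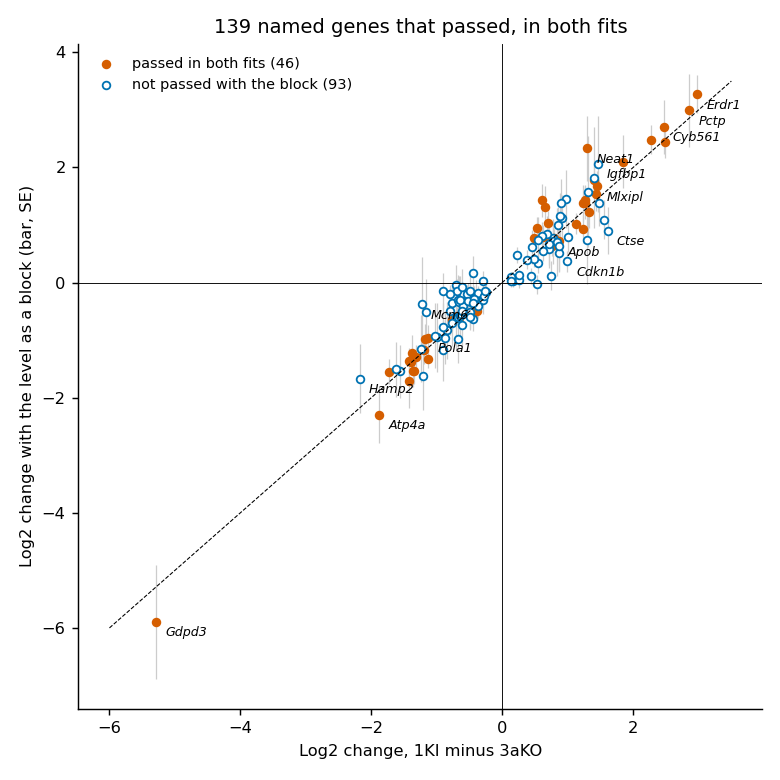
Log2 change of 139 named genes that passed, 1KI minus 3aKO, without (horizontal axis) and with (vertical axis) a block for the hybridization control level, with bars for the standard error and a dashed line for equal changes. The 46 genes that passed in both fits include Pctp, Mlxipl and Gdpd3, and the 93 others include Cdkn1b, Ctse and Hamp2.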

How the data were processed

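The deposited values are log2 expression signals of a mouse array with 45101 probe sets, which the authors normalized. Their method was not given in the sources used here, and the log2 base was taken from the values (2.22 to 15.05). A single symbol was listed for 34945 probe sets, several for 932 and none for 9160, beside 64 controls. The RefSeq annotation of GRCm38.p6 held the Entrez ID of 34741 of the first, and 0 symbols changed. The number of arrays limits the precision.

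For each of 18193 genes the probe set of highest mean over 32 arrays was used, chosen among several for 9010 genes. Linear models were fitted over these arrays (12 wt, 10 3aKO, 10 1KI) with lmFit and eBayes of limma 3.58.1 (R 4.3.3), without a trend, with Benjamini-Hochberg adjustment over all genes at 0.05. The fit was tested on simulated data. Control signals were compared by two-sided permutation tests with 100000 resamples. The hybridization control level of an array was called higher when the mean of 9 control probe sets was above 10.43. Replicate numbers were not taken as pairing: the deviations of same-numbered 1KI and 3aKO arrays correlated between -0.08 and 0.38, with 7 of 10 pairs over 0.1.

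The members, the lists and the naming rule were chosen with earlier results of these data known. The rule took the 15 higher and 15 lower genes of largest change without overlap, the 10 higher and 10 lower that also passed with the level block, up to 4 called and 2 bright uncalled members of each list, all E2F, pocket protein and cyclin genes, and 8 genes called in 3aKO against wt. The text names only part of the genes that the rule took, and leaves out some called and some uncalled members of the lists. Named after seeing their values were Chkb, Pcyt2, Mcm5, Ptdss1, Stard10, Slc2a2, Clk1, Srsf5, Srsf6, Cirbp, Fkbp5, Ddit4 and Cebpd. Lists were described by counts and medians and were not tested.

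Alternatives changed 1 choice at a time: the level block, also with a sex index; the control signal, sex index or RNA integrity as a covariate; the replicate block; the 2 genotypes alone; probe set averaging or selection; a mean of at least 6; a further quantile or median scaling; array weights; a trend; and each of the 20 arrays left out. Equal medians over all probe sets, and leaving out both 3aKO replicate 1 and 1KI replicate 6, were added after seeing the data.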

Additional observations from a re-analysis of the deposited data

Results flagged for a closer look

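Of 314 groups of 10 arrays examined (a gene or control signal in 1KI or in 3aKO), 52 held an array whose distance to its nearest neighbour was too large a part of the range of the group by Dixon's critical value. Chance flags about 1 in 20 groups, and the arrays below recur because genes of one array are not independent. No explanation of them was tested.

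In 3aKO replicate 1, genes of the E2F pathway and of the cell cycle were the highest of the genotype. The log2 levels were 7.16 for E2f1, 5.82 for E2f7, 9.77 for Tfdp1, 7.72 for Rb1, 8.54 for Rbl1 and 9.02 for Cdk2. The replication and mitosis genes Rfc3, Rfc4 and Cdk1 stood at 8.24, 8.68 and 9.72, the repair genes Msh6 and Blm at 8.65 and 7.11, and the fasting gene Pdk4 at 6.19.

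In 1KI replicate 6, the poly-A controls stood at 9.28 and the 3' minus 5' signal at 1.75, both the highest of the genotype. Splicing genes were highest there too, with Snrnp70 at 9.62, Srsf11 at 11.27, Luc7l2 at 10.51, Clk1 at 11.35 and Srsf6 at 11.25. So were Pcyt2 (12.72), Mlxipl (12.97), Gm13306 (9.31), Klhdc8b (8.75), Fam193b (10.62), Lrrc24 (6.00), Egfl7 (9.14) and Hc (12.85). Lowest of the genotype were Rbl2 (8.54), Psma7 (10.77), Psmc1 (9.35), Alb (14.91) and Septin10 (6.82).

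In 1KI replicate 3, the immune genes Gbp2 (9.62), Cxcl10 (7.92), H2-DMa (8.04), Marco (9.26) and Mpeg1 (10.03) were the highest of the genotype, all of which fell in 1KI against 3aKO. In 1KI replicate 1, Hamp2 was the highest at 13.16, and Cyb561 (5.09), Lpin1 (10.86), Angptl4 (9.67), Il6ra (9.35) and Hnf4a (12.91) were the lowest, each near the 3aKO levels of the gene.

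Single values stood apart in further arrays. In 1KI they were the low values of Slc40a1 in replicate 4 (11.83), Dhcr7 in replicate 7 (10.32) and Cers3 in replicate 9 (2.81). In 3aKO they were the high values of Tmem242 in replicate 2 (9.91) and Gm13306 in replicate 6 (5.71), and the low values of Yae1d1 in replicate 3 (6.98), Ctse in replicate 4 (8.24), and Flt4 and Egfl7 in replicate 8 (8.60 and 7.65).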

How the results depend on the processing

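Of 5636 calls (2174 higher, 3462 lower), the level block left 417 (215 and 202), the block with a sex index 391 (187 and 204) and the control signal as a covariate 1441 (473 and 968). Every probe set on its own gave 11191 (4721 and 6470), with more features tested. With the replicate block, a pairing that the labels do not state and for which 5 of 10 1KI arrays correlated best with their own number, there were 5214 calls (2050 and 3164). Leaving out 1 array gave 5119 to 5758 calls, 2031 to 2284 higher and 3088 to 3474 lower. The share of higher calls was 38.6%, 46.4% with quantile normalization, 51.6% with the level block and 27.8% with equal medians over all probe sets. The median change over all genes lay between -0.06 and -0.01 in every alternative. Of 139 named calls 46 were kept with the level block, 68 with the control signal as a covariate and 133 to 139 in the alternatives without either, except the mean of at least 6, which tested 132 and kept 132, and the block with a sex index, which kept 47. Turned in sign were Cdk2 (0.02 with the level block, 0.06 when a sex index was added), Blm (0.17 with each of these), Pfkl (-0.03, block), Akr1d1 (0.02, control signal as a covariate), Apob (-0.08, mean of its probe sets) and Plagl1 (0.07, no _x_at probe sets). The last 2 follow from probe sets that disagree, and the cause was not tested for the others. The level block rests on 2 wt arrays, so its standard errors are larger, and a call lost there does not show that the change is absent. Without single arrays, E2f1, Mcm6, Cdk1, Blm, G6pc, Lcn2, Acot1 and Cdc20 lost their call at least once.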

Other observations

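Probe sets without a gene symbol, which the gene tests leave out, moved mainly upward. Of 9160 such probe sets 2533 passed in 1KI against 3aKO by limma, 2044 higher and 489 lower, so 80.7% of the calls were higher. Of 34945 probe sets with 1 symbol 11191 passed, and 42.2% of these were higher. With the level block 1164 of the unnamed probe sets passed, 86.8% of them higher, beside 1476 of the named ones, 62.2% of them higher. Among probe sets with a mean of 6 or more the shares were 76.2% (984 calls) and 39.6% (8162 calls), and among dimmer ones 83.5% (1549 calls) and 49.3% (3029 calls). Without 1KI replicate 6 the unnamed probe sets gave 2324 calls, 79.5% higher. Against wt, 1KI gave 2613 calls among them, 79.9% higher, and 3aKO gave 0 by limma, with 945 at an unadjusted p under 0.05. Both of these comparisons share arrays with the first. What these probe sets measure was not given in the sources used here.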
